A study of Mus musculus with 12 samples.

Results

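The small leucine-rich proteoglycan (SLRP) genes were described in immortalized murine brown adipocytes that carried either an empty vector or tSema4B, a truncated and soluble version of the membrane protein Sema4B. The members were 10 genes taken by symbol (Dcn, Lum, Bgn, Ogn, Fmod, Aspn, Omd, Prelp, Podn and Ecm2), and all 10 were found among the 48321 genes of the table of normalized read counts. The cells came from a newborn wildtype C57BL/6J mouse and were immortalized with SV40 large T antigen as brown preadipocytes. They were transduced with pLEX empty vector or with pLEX carrying Flag-tagged truncated Sema4B, selected with puromycin and differentiated for 8 days. They were then kept for 6 h in serum-free medium with or without 2 μM norepinephrine (NE). The 12 libraries formed 4 groups of 3, namely unstimulated vector, unstimulated tSema4B, NE-treated vector and NE-treated tSema4B cells. Each construct was represented by a single stable line, and the design text describes the 3 replicates of a condition as technical. The p-values therefore measure only the spread between these libraries, not that between transductions or, where libraries share a culture, between cultures.

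SLRPs are secreted proteins of the extracellular matrix whose core consists of leucine-rich repeats and often carries glycosaminoglycan chains. Decorin and biglycan carry chondroitin or dermatan sulfate, while lumican, fibromodulin and osteomodulin can carry keratan sulfate. Their curved cores bind fibrillar collagens and set the width and spacing of fibrils, and several members bind TGF-β and other growth factors or act on cell surface receptors. In adipose tissue they are mainly products of fibroblast-like stromal cells and adipocyte precursors, and they form part of the matrix laid down around fat cells.

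The libraries held from 2000780 to 5409583 reads on genes, and tSema4B libraries were shallower than vector libraries both without and with NE. Normalized Sema4b counts, which do not tell the endogenous gene from the construct, were 116797 ± 6692 (SD, n = 3) in vector and 281514 ± 31108 in tSema4B cells without stimulation, and 74266 ± 8219 and 234276 ± 32374 after NE. Sema4b was thus high in the empty vector line as well, where it took 3.58% to 4.02% of the reads on genes before NE and ranked 2 among all genes in each library, against 8.53% to 10.2% and rank 1 in the tSema4B libraries. After NE the shares were 2.04% to 2.57% (rank 2 or 3) and 7.01% to 8.88% (rank 1). Why the line labelled empty vector had this level was not tested, and the 2 lines are compared as labelled. As a check of the labelled cell type, all 12 adipocyte markers of a list were read in every group. Of 9 brown adipocyte markers 8 had a read, Dio2 had none in any library, and their summed normalized count was 248 to 307 in vector and 56.0 to 82.1 in tSema4B cells before NE. Macrophage and endothelial markers were near the floor, with summed counts of at most 24.6 and 23.3 in any library, and Adgre1, Ptprc, Tie1 and Cldn5 had no read.

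Most members lie in 3 clusters of the mouse genome (GRCm38, GENCODE M21). On chromosome 13, Ecm2 (ENSMUSG00000043631.8, from 49504810 to 49532789), Aspn (ENSMUSG00000021388.14, from 49544443 to 49567565), Omd (ENSMUSG00000048368.9, from 49582462 to 49592822) and Ogn (ENSMUSG00000021390.6, from 49608046 to 49624501) follow one another on the plus strand with gaps of 11.7, 14.9 and 15.2 kb. All of these lie inside the span of Cenpp on the opposite strand, and only Aspn shares exon bases with it, 7 in number. On chromosome 10, Dcn (ENSMUSG00000019929.16, from 97479609 to 97518143) is followed after 47.0 kb by Lum (ENSMUSG00000036446.5, from 97565128 to 97572703). On chromosome 1, Prelp (ENSMUSG00000041577.5, from 133910304 to 133921414, minus strand) lies 115.8 kb before Fmod (ENSMUSG00000041559.7, from 134037254 to 134048277). Bgn (ENSMUSG00000031375.17) lies on chromosome X from 73483602 to 73495933 and Podn (ENSMUSG00000028600.15) on chromosome 4 from 108014791 to 108096445. All 10 are protein-coding. Prelp shares 350 exon bases with the antisense gene Gm15851, for which no read was counted in any library.

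Promoter sequence was looked up in RefSeq (GRCm38.p6) for the members and was found for 8 of them (not for Dcn and Lum). The 250 bases before the annotated start are shown, 5′ to 3′ on the plus strand, for the 3 members with a window that reached an adjusted p of 0.05 or less in both comparisons of the lines (Bgn at chrX:73483351-73483600, Ogn at chr13:49607765-49608014 and Aspn at chr13:49544193-49544442). Capitals mark matches on either strand to a TATA box, which was searched as TATAAA. They also mark the CCAAT box, searched by the letters of its name. The third motif in capitals is the E-box, searched as CANNTG.
Bgn: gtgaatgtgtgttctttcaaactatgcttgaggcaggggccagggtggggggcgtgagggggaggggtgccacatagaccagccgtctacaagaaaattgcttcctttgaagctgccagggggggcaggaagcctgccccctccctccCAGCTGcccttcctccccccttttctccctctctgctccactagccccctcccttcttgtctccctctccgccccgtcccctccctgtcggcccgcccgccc
Ogn: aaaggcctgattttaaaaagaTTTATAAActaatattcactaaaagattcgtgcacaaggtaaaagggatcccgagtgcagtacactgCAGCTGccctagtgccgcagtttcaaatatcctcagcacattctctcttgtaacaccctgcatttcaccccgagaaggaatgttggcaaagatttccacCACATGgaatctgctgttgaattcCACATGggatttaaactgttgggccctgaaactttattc
Aspn: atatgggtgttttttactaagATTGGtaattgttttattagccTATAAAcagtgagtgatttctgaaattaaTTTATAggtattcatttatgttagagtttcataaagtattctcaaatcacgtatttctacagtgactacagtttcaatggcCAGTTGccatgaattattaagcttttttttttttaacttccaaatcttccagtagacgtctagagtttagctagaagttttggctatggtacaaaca
The 3 windows differed in base composition, with 64.4% G and C for Bgn, 42% for Ogn and 30% for Aspn, against a median of 52.4% over all 32851 windows. Aspn and Ogn each held 2 TATAAA matches, those of Ogn overlapping and starting 229 and 227 bases before the start and those of Aspn starting 207 and 178 bases before it, and Bgn held none. TATAAA was found in 2 of the 9 windows of members (Podn has 2 windows) and in 12.4% of all windows, CCAAT in 2 of 9 and in 33.8% of all, and CANNTG in 6 of 9 and in 66.2% of all. The full cAMP response element (TGACGTCA) and the AP-1 site (TGANTCA) were in 0 of the 9 windows, and in 1.55% and 6.75% of all. CAGAC, the SMAD-binding element, was in 2 of 9 (Prelp and Fmod) and in 42.2% of all. These are matches of letters and not measured binding sites.

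Levels of different genes were compared as normalized counts per kb of the longest principal transcript. By this measure Bgn, Dcn, Ogn and Aspn held the first 4 places in this order in each of the 4 groups. In unstimulated vector cells the level per kb was 1642 ± 73.5 for Bgn, 440 ± 40.4 for Dcn, 101 ± 15.5 for Ogn and 79.9 ± 19.2 for Aspn, and the ranges of Ogn and Aspn overlapped in this group while those of the other neighbours did not. Within each of these libraries Aspn was below Ogn, at a ratio of 0.782 ± 0.0697. The other 6 members ranged from 2.00 (Ecm2) to 8.98 (Prelp) per kb, and their order changed between groups. Bgn made up 71.5% ± 1.34 of the summed level per kb in unstimulated vector cells and Dcn 19.1% ± 0.863, while the 6 low members together made up 1.58% ± 0.140.

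The first comparison asked how the SLRP genes of tSema4B cells differed from those of vector cells without stimulation. Dcn, which encodes decorin, and Ogn, which encodes osteoglycin, were higher in tSema4B cells, with ratios of the group means of 2.00 and 2.21, Bgn and Aspn were higher with ratios of 1.45 and 1.68, and the other 4 tested members did not pass in either direction. A gene was tested if it had at least 10 normalized counts in at least 3 libraries, which 8 of the 10 members and 11998 genes in all did (Omd and Ecm2 did not), and it was called where the adjusted p did not exceed 0.05 and the log2 fold change, in size, reached 1. Of the 8 tested members, 2 (Dcn and Ogn) were called higher, where 1.11% of all tested genes were, and 0 were called lower, where 2.71% were. At the adjusted p alone 4 were higher (5.64% of all tested genes) and 0 lower (7.39%), and edgeR and DESeq2 also called 0 lower. Adjusted p-values here and below are from limma with Benjamini-Hochberg adjustment over all tested genes.

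Dcn had 821, 691 and 806 normalized counts in the 3 unstimulated vector libraries and 1511, 1657 and 1472 in the 3 unstimulated tSema4B libraries. Every tSema4B library was above every vector library, and the gap between the groups was wider than the range of either. On the log2 scale tSema4B exceeded vector by 1.00 (SE 0.102, adjusted p = 2.73e-07). Dcn thus sat on the fold change threshold, and it was not called with a pseudocount of 10 (0.99), after rescaling over nuclear genes (0.92), by edgeR (0.99), without vector replicate 2 (0.92) or without tSema4B replicate 2 (0.95).

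Biglycan, the nearest relative of decorin, was the most abundant member. Bgn had 4004, 3782 and 4133 normalized counts in the unstimulated vector libraries and 5772, 6364 and 5179 in the unstimulated tSema4B libraries. The groups did not overlap, and the difference of 0.53 on the log2 scale (SE 0.0756, adjusted p = 2.78e-05) was under the threshold of 1. Asporin, which belongs to the same class but lacks glycosaminoglycan chains, varied more between libraries. Aspn had 165, 156 and 237 in vector and 230.0, 360.4 and 345 in tSema4B, so that the highest vector library lay above the lowest tSema4B library. Aspn was higher by 0.74 on the log2 scale (SE 0.219, adjusted p = 0.027). Its adjusted p ran from 0.00918 to 0.134 over the alternatives tried, and it exceeded 0.05 when vector replicate 1 (0.109) or 2 (0.134) was left out, when tSema4B replicate 2 (0.118) or 3 (0.0983) was left out, and with no filter (0.0578).

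Osteoglycin, also called mimecan, had the largest fold among the members called. Ogn had 249.8, 226 and 304 normalized counts in vector and 616, 600.2 and 508 in tSema4B. All 3 tSema4B libraries lay above all 3 vector libraries. This was a log2 difference of 1.15 (SE 0.132, adjusted p = 1.67e-06), and it stayed between 1.05 and 1.27 over 18 alternatives. For 3 of the 8 tested members (Dcn, Bgn and Ogn) the groups did not overlap with tSema4B higher, as for 14.2% of all tested genes, and for 0 with tSema4B lower (15.1%). The smallest p that an exact permutation test allows for 3 against 3 libraries is 0.1, so the calls depend on the variance limma shares between genes.

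**Figure D1:**
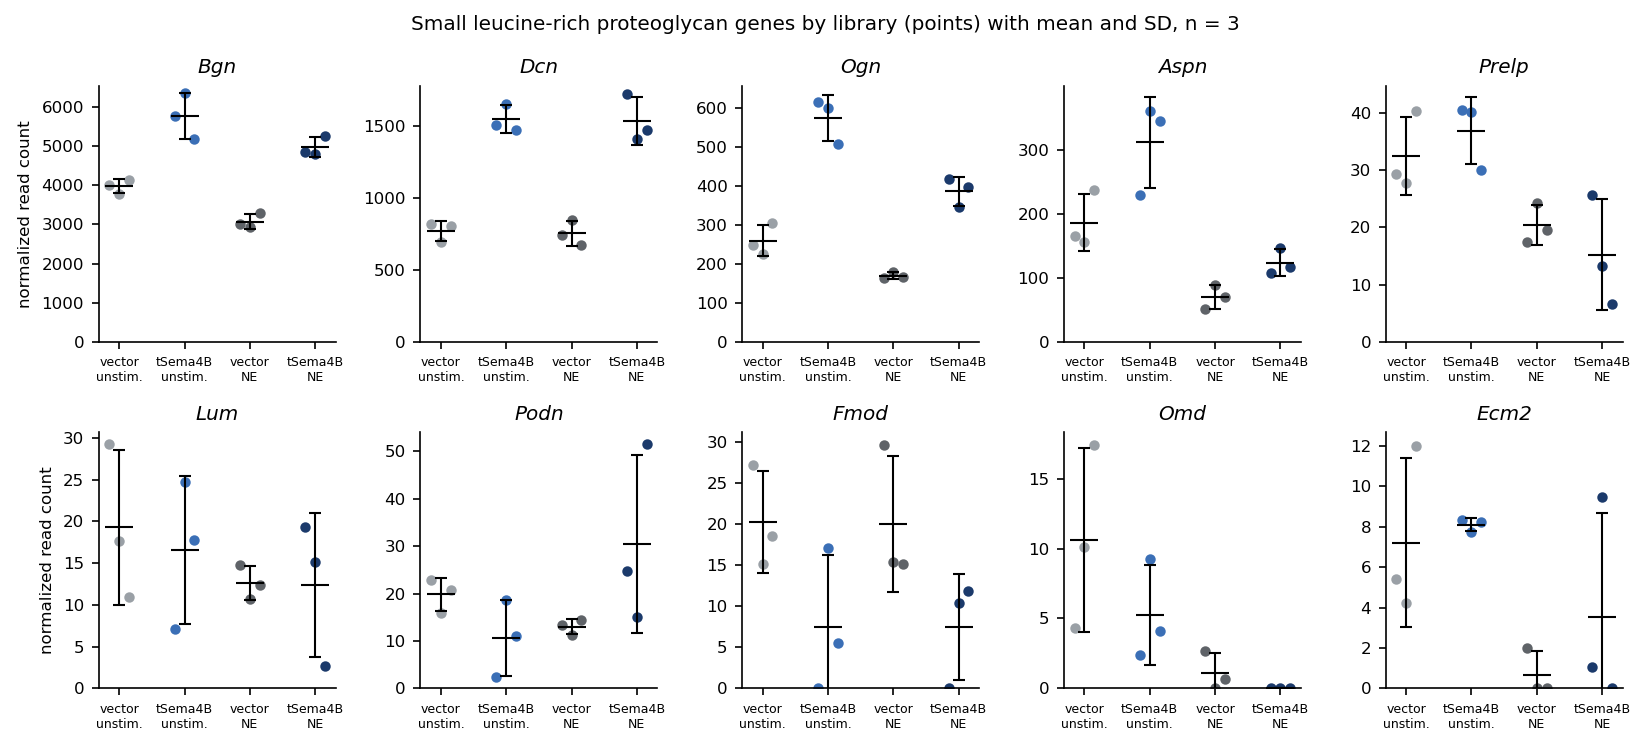
Normalized read counts of the 10 members (vertical axes, each from 0) in the 4 groups, with a point for each library and a bar for the mean and SD (n = 3, lower arms cut at 0). Bgn, Dcn, Ogn and Aspn are higher in tSema4B than in vector cells in both conditions, and Omd has no read in the 3 NE-treated tSema4B libraries.

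The second comparison repeated this after NE. Dcn, Ogn, Bgn and Aspn were again the members at an adjusted p of 0.05 or less, higher in tSema4B cells with ratios of the group means of 2.04, 2.27, 1.62 and 1.77. Dcn and Ogn were called higher (2 of 8, against 2.03% of all tested genes), 0 were called lower (3.73%), and at the adjusted p alone 4 were higher (9.79%) and 0 lower (11.2%). The comparisons with and without NE share no library.

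Dcn had 742, 849 and 676 normalized counts in NE-treated vector cells and 1726, 1413 and 1473 in NE-treated tSema4B cells (log2 difference 1.03, SE 0.102, adjusted p = 2.21e-07). Bgn had 3005, 2933 and 3285 in vector and 4848, 4808 and 5265 in tSema4B (log2 difference 0.69, SE 0.0756, adjusted p = 8.06e-07). For both genes the lowest tSema4B library was well above the highest vector library. The call of Dcn again rested on the fold threshold, since its log2 fold change was 0.97 after rescaling over nuclear genes, 0.95 without vector replicate 3 and 0.94 without tSema4B replicate 1.

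Ogn had 165, 180.2 and 166 in NE-treated vector cells and 417, 346 and 396 in NE-treated tSema4B cells (log2 difference 1.18, SE 0.132, adjusted p = 1.26e-06). Aspn had 51.1, 88.3 and 70.1 in vector and 107, 147 and 118 in tSema4B (log2 difference 0.84, SE 0.219, adjusted p = 0.00819). Neither gene had overlapping groups. Without vector replicate 2 the log2 fold change of Aspn was 1.03 and it was called (adjusted p = 0.00458), while without vector replicate 1 its adjusted p was 0.0624, the highest over the alternatives. Groups did not overlap with tSema4B higher for 5 of the 8 tested members (those 4 and Podn), where 17.9% of all tested genes did so, and with tSema4B lower for 1 (Fmod), where 19.8% did.

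**Figure D2:**
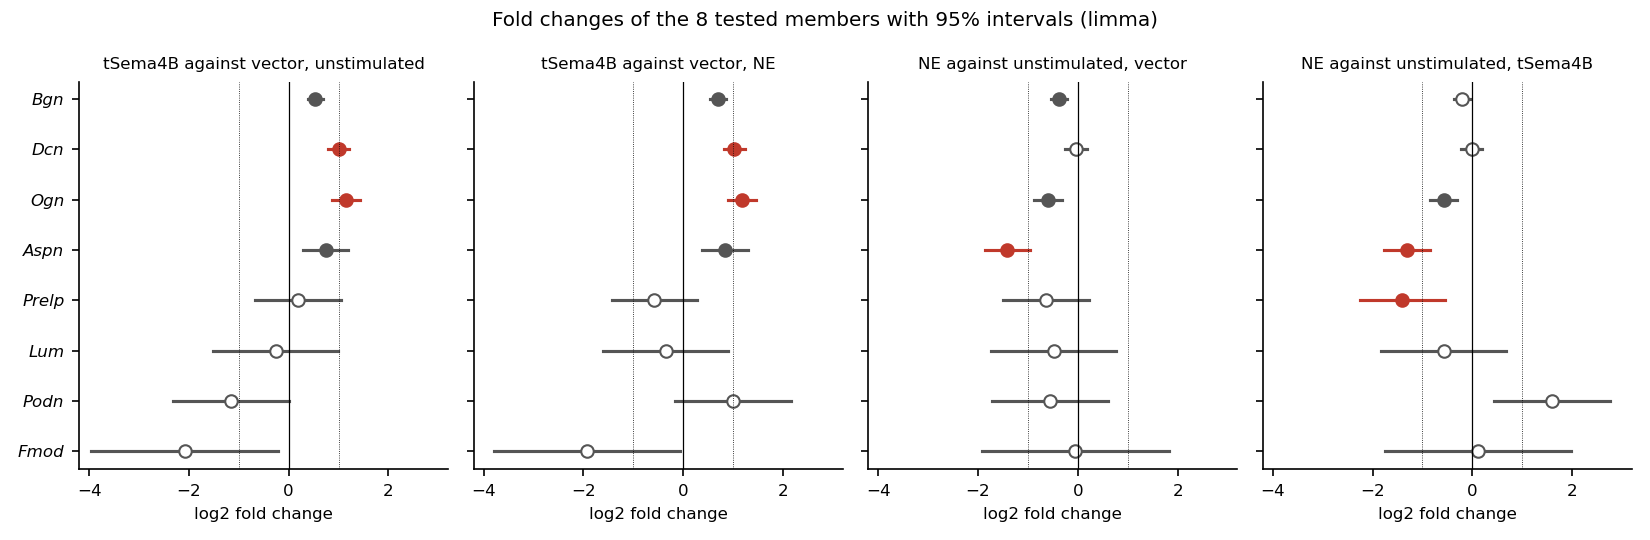
Log2 fold changes (horizontal axes) of the 8 tested members with 95% intervals from limma, in the 4 comparisons of groups. Red marks called members, filled points an adjusted p of 0.05 or less, and dotted lines the fold threshold of 1. Dcn lies near 1 in both comparisons of the lines and near 0 in both NE responses.

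The next comparisons asked how the members responded to NE within each line. Aspn, which was called in both lines, fell to 0.375 of its unstimulated mean in vector cells and to 0.397 in tSema4B cells, Ogn fell to 0.655 and 0.672, and Dcn did not pass the test in either line. In vector cells 1 of the 8 tested members (Aspn) was called lower, where 0.975% of all tested genes were, and 3 (Aspn, Ogn and Bgn) were lower at the adjusted p alone, where 4.78% were. In tSema4B cells 2 (Aspn and Prelp) were called lower (0.758% of all tested genes), and 3 (Aspn, Prelp and Ogn) were lower at the adjusted p alone (2.58%). Groups did not overlap with NE lower for 5 members in vector cells (Aspn, Ogn, Bgn, Prelp and Podn, against 15.7% of all tested genes) and for 3 in tSema4B cells (Aspn, Ogn and Prelp, against 9.64%), and with NE higher for 0 in either line (17.6% and 11.0%). No member was called higher in response to NE, where 1.66% of all tested genes were in vector cells and 1.31% in tSema4B cells, and 0 were higher at the adjusted p alone (6.82% and 3.68%). By limma Podn in tSema4B cells had an unadjusted p of 0.00933 and an adjusted p of 0.0974, and edgeR and DESeq2 called 0 members higher.

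The mean of Aspn was 186 ± 44.8 normalized counts in unstimulated vector cells and 69.8 ± 18.6 after NE. In tSema4B cells it was 312 ± 71.3 and 124 ± 20.5. In both lines every NE-treated library was below every unstimulated library of the same line. The log2 fold changes were -1.41 (SE 0.219, adjusted p = 1.65e-04) in vector and -1.31 (SE 0.219, adjusted p = 5.15e-04) in tSema4B cells, and the call held under 18 alternatives in each line. The NE-treated tSema4B cells held fewer Aspn counts than the unstimulated vector cells, at 124 against 186.

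Ogn averaged 260 ± 39.8 without and 170.1 ± 8.70 with NE in vector cells, and 575 ± 58.4 and 386 ± 36.8 in tSema4B cells. NE-treated libraries lay below unstimulated libraries in both lines. The log2 fold changes of -0.60 (SE 0.132, adjusted p = 0.00443) and -0.57 (SE 0.132, adjusted p = 0.00948) were under the threshold of 1 in size. In tSema4B cells the adjusted p of Ogn was 0.0511 without unstimulated replicate 1 and 0.0554 without NE-treated replicate 2. The means of Bgn were 3973 ± 178 and 3075 ± 186 in vector cells and 5772 ± 592 and 4974 ± 253 in tSema4B cells. Its groups did not overlap in vector cells (log2 difference -0.37, SE 0.0756, adjusted p = 0.00243), and in tSema4B cells they overlapped and the difference did not pass (-0.21, 95% interval from -0.37 to -0.05, adjusted p = 0.105), except without unstimulated tSema4B replicate 3 (-0.29, adjusted p = 0.034).

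Dcn did not pass in either line. Its means were 773 ± 71.0 and 755 ± 87.3 in vector cells without and with NE, and 1547 ± 97.4 and 1537 ± 166 in tSema4B cells. The groups overlapped in both lines, and the log2 fold changes were -0.03 (95% interval from -0.25 to 0.18) and -0.01 (from -0.22 to 0.20). These intervals do not reach the size of the fall of Aspn or Ogn in the same line. The ratio of Dcn to Bgn per kb was 0.267 ± 0.0154 in unstimulated vector, 0.370 ± 0.0184 in unstimulated tSema4B, 0.340 ± 0.0576 in NE-treated vector and 0.426 ± 0.0559 in NE-treated tSema4B cells. The unstimulated groups did not overlap in this ratio, whereas the NE-treated groups did (0.283 to 0.398 in vector and 0.385 to 0.490 in tSema4B).

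Prelp encodes PRELP, a class II member that links basement membranes to the matrix, and it rested on few reads. It had 29.3, 27.7 and 40.3 normalized counts in vector cells without NE, 40.5, 40.2 and 30.1 in tSema4B cells without NE, 17.5, 24.3 and 19.6 in NE-treated vector cells and 25.7, 13.3 and 6.61 in NE-treated tSema4B cells. NE-treated libraries were below unstimulated libraries in both lines, with means of 32.5 ± 6.84 and 20.5 ± 3.49 in vector and 37.0 ± 5.92 and 15.2 ± 9.71 in tSema4B cells. The log2 fold change was -0.63 in vector cells (95% interval from -1.49 to 0.22, adjusted p = 0.38) and -1.40 in tSema4B cells (SE 0.413, adjusted p = 0.0457). The call in tSema4B cells was lost under 11 of 17 alternatives. Its adjusted p was 0.088 by edgeR, 0.0566 by DESeq2, and 0.184 without NE-treated tSema4B replicate 3, where the log2 fold change was -0.95.

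Across the 10 members the summed level per kb was 2299 ± 145 in unstimulated vector, 3651 ± 328 in unstimulated tSema4B, 1819 ± 40.4 in NE-treated vector and 3157 ± 128 in NE-treated tSema4B cells. This sum followed Bgn and Dcn, which together exceeded the rest in every library. The share of Bgn was 65.3% ± 1.22 in unstimulated tSema4B cells, below the 71.5% of unstimulated vector cells, and that of Dcn was 24.1% ± 0.759, above the 19.1% of vector cells, with no overlap in either share. After NE the lines overlapped in both shares, with 66.5% to 73.1% for Bgn in vector and 62.3% to 67.1% in tSema4B, and 20.7% to 26.5% against 25.8% to 30.5% for Dcn. After NE the share of Aspn was 1.64% ± 0.424 in vector cells and 1.69% ± 0.352 in tSema4B cells, against 3.45% ± 0.648 and 3.68% ± 0.857 without it.

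**Figure D3:**
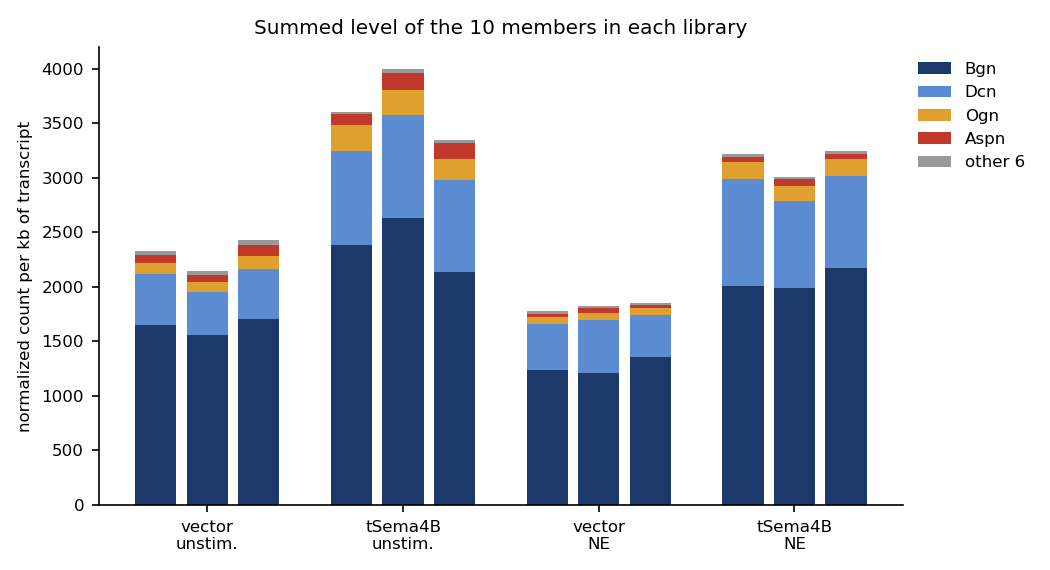
Summed level of the 10 members in normalized counts per kb of transcript (vertical axis, from 0), a bar for each library, with the parts of Bgn, Dcn, Ogn, Aspn and the other 6. The 6 tSema4B libraries lie between 3009 and 4001 and the 6 vector libraries between 1777 and 2427.

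The interaction of tSema4B and NE, which asks whether the response to NE differed between the lines, was called for 0 of the 8 tested members by limma at the adjusted p alone, where 0.0250% of all tested genes were, and for 0 by edgeR and DESeq2. At an unadjusted p under 0.05 there was 1 member (Podn), where 10.2% of all tested genes passed. For Dcn, Ogn, Aspn and Bgn the interaction was 0.02, 0.03, 0.10 and 0.16 on the log2 scale, with 95% intervals from -0.28 to 0.32, from -0.36 to 0.42, from -0.54 to 0.74 and from -0.06 to 0.38.

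Podn encodes podocan, a member with collagen-binding leucine-rich repeats. It had 22.8, 16.0 and 20.7 normalized counts in vector cells without NE, 2.38, 18.6 and 11.0 in tSema4B cells without NE, 13.4, 11.3 and 14.4 in NE-treated vector cells and 24.7, 15.1 and 51.5 in NE-treated tSema4B cells. The highest value thus came from 1 library, NE-treated tSema4B replicate 3, with 39 reads. The log2 fold change of tSema4B against vector was -1.16 without NE (95% interval from -2.32 to 0.00, adjusted p = 0.193) and 1.00 with NE (from -0.16 to 2.16, adjusted p = 0.223). Leaving out single libraries gave -1.70 to -0.43 without NE and 0.54 to 1.39 with NE. The interaction was 2.16 (SE 0.79, unadjusted p = 0.0124, adjusted p = 0.328), and leaving out single libraries gave values down to 1.43. In tSema4B cells alone the response to NE was 1.59 (adjusted p = 0.0974), and it was called only without unstimulated tSema4B replicate 2 (2.13, adjusted p = 0.0345). This response ranged from 0.87 to 2.13 with a library left out.

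Lumican and fibromodulin, class II members that bind overlapping sites on fibrillar collagen, were also near the limit of detection. Lum had 29.3, 17.7 and 10.9 normalized counts in unstimulated vector, 7.15, 24.8 and 17.8 in unstimulated tSema4B, 14.8, 10.7 and 12.4 in NE-treated vector and 19.3, 15.1 and 2.64 in NE-treated tSema4B cells. All groups overlapped, and the difference of the lines was -0.26 without NE (95% interval from -1.51 to 1.00) and -0.35 with NE (from -1.60 to 0.90). Lum lies 47.0 kb from Dcn, and its level per kb in unstimulated tSema4B cells was 6.77 against 880 for Dcn.

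Fmod had 27.1, 15.1 and 18.5 normalized counts in unstimulated vector and 29.6, 15.4 and 15.1 in NE-treated vector cells. In tSema4B cells it had 0, 17.0 and 5.48 without NE and 0, 10.4 and 11.9 with NE. Its log2 fold changes of tSema4B against vector were -2.08 without NE (95% interval from -3.95 to -0.21, adjusted p = 0.138) and -1.92 with NE (from -3.79 to -0.06, adjusted p = 0.139). The groups did not overlap after NE and overlapped without it. The value depended on single libraries, since the log2 fold change without NE was -0.94 when tSema4B replicate 1, which had no read, was left out and -3.02, past both thresholds (adjusted p = 0.0403), when tSema4B replicate 2, which had 11 reads, was left out. The log2 fold change with NE ranged from -2.57 to -0.72 with a library left out.

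Omd and Ecm2, the neighbours of Aspn on chromosome 13, were too low to be tested. Omd encodes osteomodulin, a keratan sulfate proteoglycan of mineralized tissue, and Ecm2 encodes a matrix protein related to decorin in its repeats. Omd had 4, 12 and 16 reads in unstimulated vector, 2, 6 and 3 in unstimulated tSema4B, 4, 0 and 1 in NE-treated vector and 0 in each NE-treated tSema4B library. Ecm2 had 5, 5 and 11 reads, 7, 5 and 6, 3, 0 and 0, and 1, 10 and 0 in the same order of groups. For both genes the 3 vector libraries had fewer normalized counts after NE than before it, as did 15.7% of all tested genes. Neither gene was tested, and these counts rest on at most 16 reads in a library, so no response to NE is read from them. A count of 0 in an NE-treated tSema4B library allows up to 3 reads, which is 2.84 to 3.96 normalized counts in these libraries, so a lower level of Omd was not detectable at this depth.

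Ecm2, Aspn, Omd and Ogn are the 4 genes of the cluster on chromosome 13, and their levels per kb in unstimulated tSema4B cells were 2.25, 134, 2.34 and 224 in this order. Cenpp, the centromere protein gene that spans them on the other strand, had 104 ± 2.35 normalized counts in unstimulated vector, 89.8 ± 23.6 in unstimulated tSema4B, 125 ± 9.02 in NE-treated vector and 81.7 ± 22.2 in NE-treated tSema4B cells. Its mean was lower in tSema4B than in vector cells in both conditions, with overlapping ranges before NE, whereas those of Aspn and Ogn were higher.

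Of 9 other SLRP genes of a list (Kera, Epyc, Optc, Chad, Chadl, Nyx, Tsku, Podnl1 and Nepn), 8 had a read and 2 (Tsku and Podnl1) were tested. Kera, which follows Lum on chromosome 10, had at most 1 read in a library and Optc, which precedes Prelp on chromosome 1, at most 3. Podnl1, a relative of podocan, was higher in tSema4B than in vector cells after NE, with 24.1 ± 4.62 against 10.5 ± 6.38 normalized counts (log2 difference 1.33, SE 0.474, adjusted p = 0.0497), and before NE the log2 difference was 0.39 (adjusted p = 0.655, interaction 0.94, adjusted p = 0.683).

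Collagens that SLRPs bind formed a list of 14 genes, and 11 passed the filter. Without NE 8 were higher and 1 was lower in tSema4B at the adjusted p alone, and 2 and 1 were called, where 5.64% and 7.39% of all tested genes passed at the adjusted p alone and 1.11% and 2.71% were called. The median log2 fold change was 0.74, against 0.36 for the 8 tested members and 0.00 for all tested genes. Col1a1 and Col1a2, the chains of type I collagen, had 5737 ± 124 and 12369 ± 325 normalized counts in vector and 11724 ± 913 and 24205 ± 2386 in tSema4B cells (log2 differences 1.03 and 0.96, adjusted p = 5.68e-10 and 9.45e-10). Col3a1, the chain of type III collagen, had 6905 ± 402 in vector and 14462 ± 1061 in tSema4B cells (log2 difference 1.07, adjusted p = 9.45e-10). Col11a1, a minor fibrillar chain, was lower, with 38.8 ± 13.7 in vector and 3.02 ± 1.63 in tSema4B cells (log2 difference -3.33, adjusted p = 1.47e-04).

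After NE 7 collagens were higher and 1 was lower in tSema4B cells at the adjusted p alone (9.79% and 11.2% of all tested genes), and the median was 0.60 against 0.77 for the members and -0.01 for all tested genes. In response to NE 4 collagens were lower in vector cells and 7 in tSema4B cells at the adjusted p alone (4.78% and 2.58% of all tested genes), and 0 were higher in either (6.82% and 3.68%). Col1a1 and Col1a2 had log2 fold changes of -0.30 and -0.43 in vector cells (adjusted p = 0.00597 and 1.92e-04) and of -0.27 and -0.29 in tSema4B cells (adjusted p = 0.0215 and 0.00925). Col5a3, a chain of type V collagen, was called lower in tSema4B cells, from 249 ± 71.2 to 110.2 ± 18.2 (log2 difference -1.14, adjusted p = 0.00109). In vector cells it went from 143 ± 20.2 to 92.8 ± 20.1 without overlap (-0.63, adjusted p = 0.0506), and the interaction did not pass (-0.51, adjusted p = 0.576). Col3a1 did not pass in either line (-0.09, 95% interval from -0.25 to 0.06, and 0.02, from -0.13 to 0.17). The median NE response of the tested members was -0.52 in vector and -0.39 in tSema4B cells, against -0.30 and -0.29 for the collagens and -0.02 and -0.00 for all tested genes.

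Enzymes that build the chains of decorin and biglycan, from the linker to chondroitin and dermatan sulfate, made a list of 22 genes with 19 tested. Without NE 1 was higher and 1 lower in tSema4B at the adjusted p alone, and after NE 6 were higher and 1 lower. Over all tested genes these shares were 5.64% and 7.39% without NE and 9.79% and 11.2% with it, so the count of 1 of 19 in each direction without NE was near the background. The medians were 0.23 and 0.31. Among those called, Chst11, a chondroitin 4-O-sulfotransferase, was lower in unstimulated tSema4B cells (62.2 ± 7.33 in vector and 26.0 ± 17.8 in tSema4B, log2 difference -1.60, adjusted p = 0.0276), with -0.73 after NE (adjusted p = 0.298, interaction 0.86, adjusted p = 0.719). After NE Ust, a uronyl 2-O-sulfotransferase, was higher (24.3 ± 8.25 and 67.1 ± 13.9, log2 difference 1.45, adjusted p = 0.00164, against 0.23 and adjusted p = 0.693 before NE, interaction 1.22, adjusted p = 0.319) and Chst15 lower (39.8 ± 7.58 and 14.7 ± 10.7, log2 difference -1.61, adjusted p = 0.0062, against 0.23 and adjusted p = 0.776 before NE). Csgalnact1, which starts chondroitin chains, fell with NE in vector cells from 32.5 ± 9.29 to 13.8 ± 3.98 (log2 difference -1.16, adjusted p = 0.0361), and Chst15 fell in tSema4B cells from 59.8 ± 3.31 to 14.7 ± 10.7 (log2 difference -2.20, adjusted p = 0.00125). In the other line Csgalnact1 had a log2 difference of -0.28 (adjusted p = 0.729) and Chst15 one of -0.36 (adjusted p = 0.651), and the interaction did not pass for either (0.88 and -1.83, adjusted p = 0.578 and 0.242). In response to NE 0 of these 19 genes were higher and 1 was lower in each line at the adjusted p alone. Over all tested genes these shares were 6.82% and 4.78% in vector cells and 3.68% and 2.58% in tSema4B cells. Of 8 genes of keratan sulfate synthesis 5 were tested. At the adjusted p alone 2 were higher in tSema4B cells without NE and 1 with it, and 0 were lower (5.64% and 9.79% higher, and 7.39% and 11.2% lower, of all tested genes). Chst2, a sulfotransferase, was called higher in tSema4B cells in both conditions, from 15.8 ± 5.87 to 45.0 ± 3.95 without NE and from 18.8 ± 6.13 to 53.4 ± 12.3 with it (adjusted p = 0.00671 and 0.00548). Chst1, another sulfotransferase of the list, had 28.9 ± 8.95 in vector and 14.3 ± 2.21 in tSema4B cells before NE, without overlap and without passing (log2 difference -0.93, adjusted p = 0.125), and -0.35 after NE (adjusted p = 0.573).

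Proteases that trim or degrade SLRPs, with Pcolce, made a list of 14 genes with 11 tested. At the adjusted p alone 8 were higher in tSema4B than in vector cells without NE and 7 with NE (5.64% and 9.79% of all tested genes), and 0 were lower (7.39% and 11.2%). In response to NE 3 were higher and 2 lower in vector cells at the same threshold (6.82% and 4.78% of all tested genes). In tSema4B cells 1 was higher and 2 were lower with NE (3.68% and 2.58%). Bmp1, which removes the propeptides of biglycan and osteoglycin and those of fibrillar procollagen, was called after NE (114 ± 17.6 in vector and 230.1 ± 17.9 in tSema4B, log2 difference 1.02, adjusted p = 5.11e-04), and before NE the log2 difference was 0.74 (adjusted p = 0.011). The related Tll1 rose with NE, from 3.21 ± 1.02 to 32.6 ± 9.66 in vector cells and from 6.23 ± 5.63 to 48.8 ± 16.0 in tSema4B cells (log2 differences 2.98 and 3.36, adjusted p = 0.0055 and 0.00322). Adamts9, a versican-cleaving protease, rose with NE in vector cells from 17.2 ± 5.47 to 55.3 ± 13.8 (log2 difference 1.65, adjusted p = 0.0294), and in tSema4B cells it had 22.0 ± 16.2 and 49.4 ± 18.7 (1.38, adjusted p = 0.1, interaction -0.28, adjusted p = 0.928). Adamts5, an aggrecanase that cleaves proteoglycans, fell with NE in both lines, from 542 ± 69.2 to 233 ± 6.33 in vector cells and from 831 ± 79.2 to 353 ± 69.3 in tSema4B cells (log2 differences -1.20 and -1.25, adjusted p = 2.42e-06 and 1.86e-06).

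Receptors and growth factors that SLRPs are known to bind made a list of 19 genes, and 11 passed the filter. At the adjusted p alone 7 were higher in unstimulated tSema4B cells and 6 after NE (5.64% and 9.79% of all tested genes), and 0 were lower (7.39% and 11.2%). In response to NE 1 was higher and 1 lower in each line at the same threshold. Over all tested genes these shares were 6.82% and 4.78% in vector cells and 3.68% and 2.58% in tSema4B cells. Tgfb2, a TGF-β ligand that decorin and biglycan can bind, was called, with 91.8 ± 27.4 in vector and 253 ± 5.40 in tSema4B cells before NE (log2 difference 1.49, adjusted p = 1.30e-05). With NE it fell in both lines at the adjusted p alone, to 53.3 ± 3.91 in vector and 104 ± 8.60 in tSema4B cells (log2 differences -0.74 and -1.28, adjusted p = 0.0176 and 2.53e-04), and the interaction did not pass (-0.54, adjusted p = 0.534). Cd14, a co-receptor of the Toll-like receptors that biglycan engages, rose with NE in vector cells from 12.9 ± 3.77 to 32.3 ± 3.90 (log2 difference 1.29, adjusted p = 0.0464), and in tSema4B cells it had 19.5 ± 8.87 and 20.7 ± 5.99 (0.13, adjusted p = 0.904, interaction -1.15, adjusted p = 0.521).

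**Figure D4:**
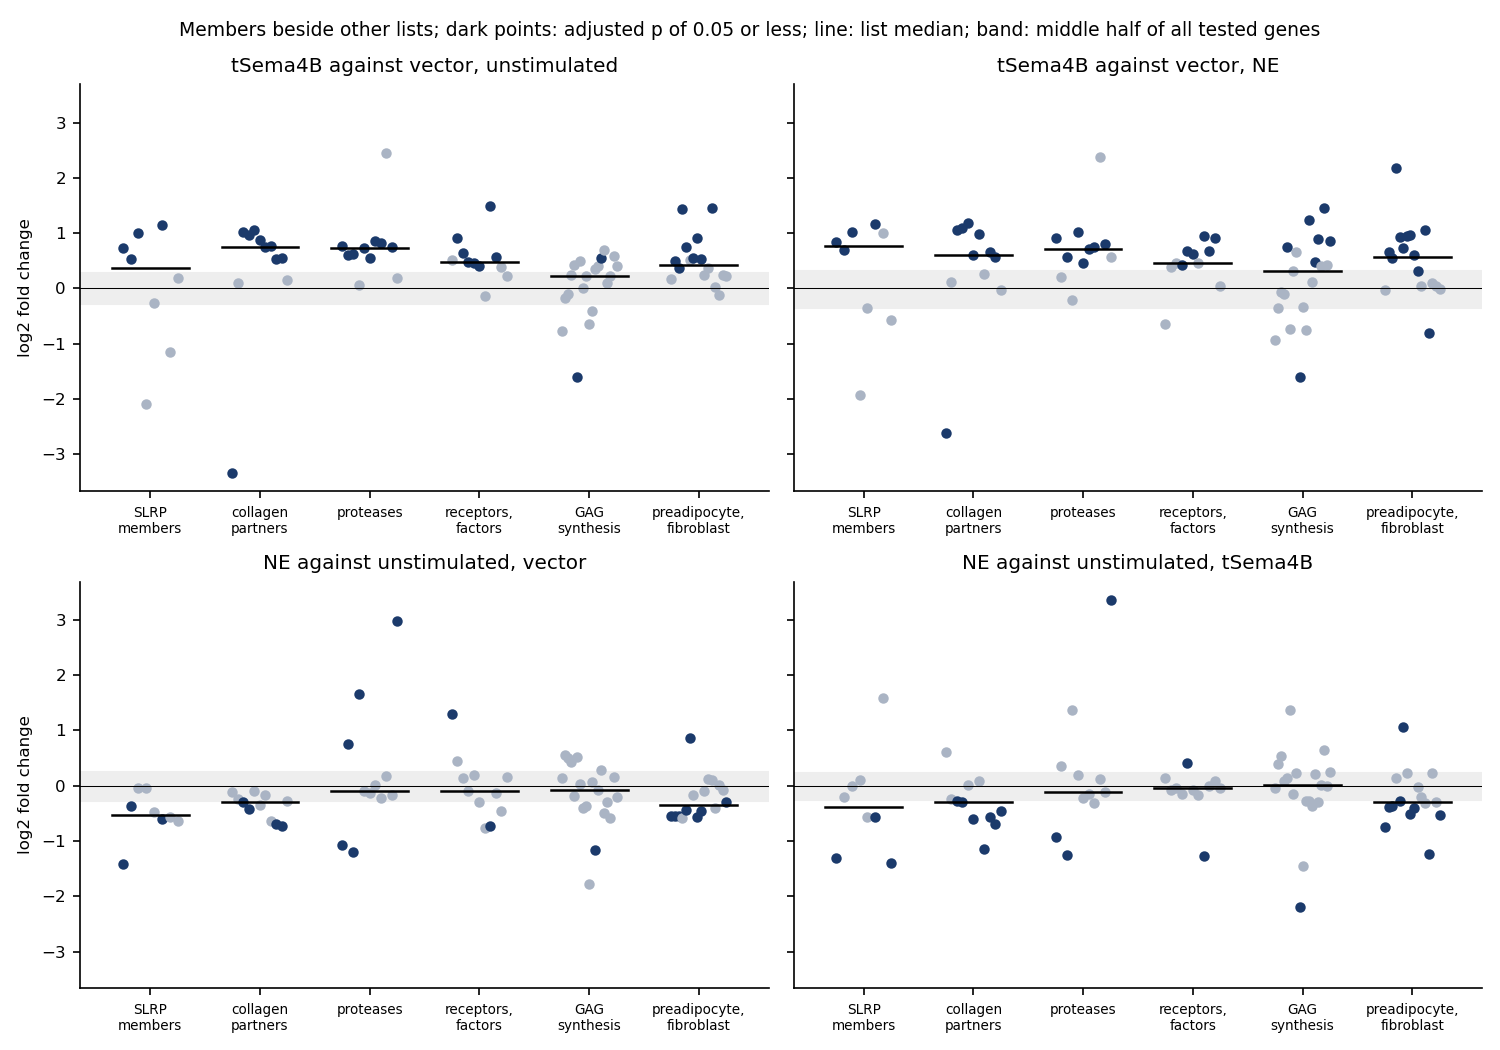
Log2 fold changes (vertical axes) of the 8 tested members and of the tested genes of 5 other lists in the 4 comparisons, with a point for each gene (dark at an adjusted p of 0.05 or less), a line for the median of the list and a band from the lower to the upper quartile of all tested genes. The medians of the members are 0.36 and 0.77 for tSema4B against vector and -0.52 and -0.39 for NE against unstimulated.

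Markers of cell types also differed between the groups, not all in the same direction as the members. All 12 adipocyte markers were called lower in tSema4B than in vector cells in both conditions (2.71% of all tested genes without NE and 3.73% with it), and their summed normalized count was 42123 to 48304 in unstimulated vector, 7122 to 9968 in unstimulated tSema4B, 56594 to 68640 in NE-treated vector and 11242 to 12711 in NE-treated tSema4B cells. Of 7 tested brown adipocyte markers 5 were called lower in tSema4B cells in both conditions, against the same shares. None of them was called higher (1.11% and 2.03% of all tested genes). The summed count of the brown adipocyte list after NE was 530 to 548 in vector and 126 to 157 in tSema4B cells. Of 20 preadipocyte and fibroblast markers 16 were tested, and in tSema4B cells 8 were higher and 0 lower without NE, and 10 were higher and 1 lower with it, at the adjusted p alone, against 5.64% and 7.39% of all tested genes without NE and 9.79% and 11.2% with it. Their summed count was 14054 to 15348 in unstimulated vector, 20522 to 23193 in unstimulated tSema4B, 11204 to 11441 in NE-treated vector and 16945 to 18642 in NE-treated tSema4B cells. In response to NE 7 of the 16 were lower and 1 higher in vector cells (4.78% and 6.82% of all tested genes), and 8 lower and 1 higher in tSema4B cells (2.58% and 3.68%). Of the 12 adipocyte markers 2 were lower and 2 higher with NE in vector cells at the adjusted p alone (4.78% and 6.82% of all tested genes). In tSema4B cells 0 of the adipocyte markers were lower and 4 higher with NE (2.58% and 3.68%). Of 9 cartilage and bone markers 3 were tested and Acan and Ibsp had no read, and the summed count was 180 to 210 in unstimulated vector against 289 to 303 in unstimulated tSema4B cells, and 158 to 177 against 165 to 305 after NE. Sox9, a transcription factor of cartilage, was higher in tSema4B cells in both conditions and fell with NE in both lines at the adjusted p alone, with 99.7 ± 8.68 and 65.3 ± 2.14 in vector and 187 ± 23.0 and 112 ± 16.2 in tSema4B cells without and with NE (adjusted p = 0.00148 and 0.00458 between lines, 0.0332 and 0.0145 for NE). The other 2 tested markers of this list did not pass in any of the 4 comparisons, with log2 differences of tSema4B against vector of 0.16 and 0.19 for Runx2 and -0.16 and -0.38 for Alpl, and responses to NE of -0.33 and -0.30 for Runx2 and 0.76 and 0.54 for Alpl. Of 7 tendon and muscle markers 2 were tested and Myod1 and Myog had no read, and Acta1, skeletal muscle actin, was called lower in tSema4B cells, with 51 and 111 reads in all in vector without and with NE against 4 and 0 (adjusted p = 0.00643 and 1.71e-04). Mkx, the other tested marker of this list, differed the other way without passing (log2 differences 0.76 and 0.91, adjusted p = 0.191 and 0.0846), and the summed counts of the list overlapped, with 37.0 to 50.4 in vector and 34.6 to 54.8 in tSema4B cells before NE and 41.2 to 59.1 and 36.0 to 60.8 after it. The macrophage marker Csf1r, the only tested marker of its list, was called higher with NE in both lines, from 1.37 ± 0.708 to 11.5 ± 2.50 in vector and from 1.31 ± 1.37 to 15.8 ± 5.42 in tSema4B cells (adjusted p = 0.0289 and 0.0119). The summed endothelial markers were 4.34 to 12.0 in unstimulated vector and 13.1 to 23.3 in unstimulated tSema4B cells, and 5.24 to 14.8 and 12.9 to 18.5 after NE. In these bulk libraries more cells of a type and more RNA per cell cannot be told apart, and the part of these markers in the differences of the SLRP genes was not tested.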

How the data were processed

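RNAseq was done on 12 libraries of immortalized brown adipocytes in 4 groups of 3, assigned from their titles. The authors made cDNA by SMART-Seq2 and Nextera XT, aligned single-end reads to the mouse genome (mm10, GRCm38.p4) with STAR 2.7.9a, used HTSeq for counting and normalized with DESeq2. What the authors deposited is a signal, namely counts over size factors. Which annotation and strand option were used, and how multi-mapping reads were handled, is not given in the sources used here. All non-zero values (100%) were whole multiples of 1 read (tolerance 0.01), and reads were recovered on this basis. The floor of 3 reads covers counting error only, since PCR copies are not independent molecules, whereas the 95% intervals are those of limma and reflect the spread between libraries.

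Normalized counts were log2-transformed with a pseudocount of 1, genes with at least 10 in at least 3 libraries were kept (11998), and the 4 group means were estimated in 1 fit by limma 3.58.1 in R 4.3.3 (variance trend on abundance, two-sided, Benjamini-Hochberg). Fold changes are differences of mean log2 values and can differ from ratios of the means in low genes. Alternatives were pseudocounts of 0.5 and 10, no filter or one at 50, rescaling to the same total over all or nuclear genes, edgeR 4.0.16 (quasi-likelihood, TMM) and DESeq2 1.42.0 on recovered reads, the adjusted p alone, a fit of the 6 libraries of a comparison alone, a block for the replicate number, and each library left out. Thinning all libraries to 2000780 reads was added after the depths were seen. Positions are from GENCODE M21 and promoters from RefSeq GRCm38.p6. The members, lists and naming rule (all members, and per list and comparison at most the 2 called genes of largest fold whose groups did not overlap, with Col1a1, Col1a2, Col3a1 and Sema4b) were chosen with earlier results of these data known.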

Additional observations from a re-analysis of the deposited data

How the results depend on the processing

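Counts of called members were small, so single genes decided them. For tSema4B against vector without NE the count of 2 became 1 with a pseudocount of 10, with rescaling over nuclear genes and by edgeR, and 4 at the adjusted p alone, and it was 1 to 2 with each library left out. After NE it became 1 with rescaling over nuclear genes and 4 at the adjusted p alone, and it was 1 to 3 with a library left out. For NE in vector cells the count of 1 became 3 at the adjusted p alone and was 1 in each case with a library left out. For NE in tSema4B cells the count of 2 became 1, by the loss of Prelp, with a pseudocount of 10, with no filter, with the filter at 50, by edgeR, by DESeq2, with only the 6 libraries compared and with the replicate block, and it was 1 to 2 with a library left out. The cause of these moves was not tested. In the filter at 50 only 4 members were tested, so Fmod, Lum, Podn and Prelp gave no value there. The members at 0.05 or less in both comparisons of the lines, Dcn, Ogn, Bgn and Aspn, kept their direction under each alternative.

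Same-numbered libraries of different groups had correlations of -0.0470 to 0.0283 after removal of group means, with 0 of 18 pairs above 0.1. Of 12 libraries 1 correlated best with a library of its own number. These correlations show no pairing by number, and they cannot exclude one. With the replicate block the count for NE in tSema4B cells was 1 (Prelp at adjusted p = 0.0542), and it changed no other count.

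Signs turned where changes were near 0 or reads were few. For NE in tSema4B cells Dcn was 0.013 after rescaling to the same total and 0.0082 over nuclear genes, and Fmod was -0.22 with reads thinned. Lum in tSema4B against vector after NE was 0.0016 by edgeR, and its interaction was 0.051 with a pseudocount of 10, 0.25 by edgeR and 0.24 by DESeq2. With a library left out, tSema4B against vector ranged from -0.61 to 0.22 without NE and from -0.82 to 0.42 with NE for Lum. The NE response ranged in vector cells from -0.12 to 0.042 for Dcn and from -0.35 to 0.18 for Fmod, and in tSema4B cells from -0.098 to 0.046 for Dcn, from -1.05 to 0.20 for Lum and from -1.03 to 1.31 for Fmod. The interaction ranged from -0.064 to 0.11 for Dcn, from -0.57 to 0.68 for Lum, from -0.090 to 0.12 for Ogn, from -0.99 to 1.36 for Fmod and from -0.10 to 0.28 for Aspn. At 2000780 to 5409583 reads, Lum, Fmod, Prelp, Podn, Omd and Ecm2 rested on at most 44 reads in any library, and changes in them were measured with wide intervals.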

Other observations

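Among 25 other proteoglycan genes of a list, 15 were tested. Prg4, which encodes lubricin, a lubricating proteoglycan of joints, rose with NE in both lines, from 14.0 ± 6.89 to 181 ± 63.3 normalized counts in vector cells and from 2.92 ± 2.54 to 35.6 ± 10.3 in tSema4B cells (limma, log2 fold changes 3.63 and 3.54, adjusted p = 9.89e-05 and 1.97e-04). Unlike Dcn and Ogn it was lower in tSema4B than in vector cells, with log2 fold changes of -2.20 without NE and -2.29 with it (adjusted p = 0.00785 and 0.00406). Sdc1, which encodes the cell surface proteoglycan syndecan-1, also rose with NE, from 376 ± 22.4 to 924 ± 110 in vector cells and from 516 ± 30.4 to 1345 ± 122 in tSema4B cells (log2 fold changes 1.29 and 1.38, adjusted p = 3.79e-08 and 1.50e-08). At the adjusted p alone 4 of the 15 were higher and 5 lower with NE in vector cells (6.82% and 4.78% of all tested genes). In tSema4B cells 5 were higher and 3 lower with NE (3.68% and 2.58%). In unstimulated cells 6 of the 15 were higher and 1 lower in tSema4B at the adjusted p alone, and after NE 9 were higher and 1 lower, where 5.64% and 7.39% of all tested genes passed without NE and 9.79% and 11.2% with it. Spock2, which encodes the secreted proteoglycan testican-2, was called higher in tSema4B cells after NE, with 16.6 ± 5.18 in vector and 41.9 ± 4.98 in tSema4B cells (limma, log2 difference 1.33, adjusted p = 0.0162), and before NE the log2 difference was -0.10 (adjusted p = 0.904, interaction 1.43, adjusted p = 0.344).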
